A study of Mus musculus with 20 samples.

Results

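Fatty acid and ketone oxidation was followed through 10 genes in the epididymal fat of mice switched from chow to a high-fat diet. The genes were chosen by name, as the enzymes that carry fatty acids into mitochondria, cut them to acetyl-CoA and use ketone bodies. Earlier results of these data were known when the genes were chosen. They are Cpt1a, Cpt1b and Cpt2 of the carnitine shuttle, the acyl-CoA dehydrogenase genes Acadvl, Acadl, Acadm and Acads, Hadha and Hadhb of the trifunctional protein, and Oxct1 of ketone body use. Each was found once among the 39179 gene IDs of the count table. Of the 10 genes, 9 passed the filter on low counts and were among the 15254 genes tested, and Cpt1b did not pass. The animals were males of the widely used inbred strain C57BL6/J, and RNA was taken from the epididymal fat pad. The chow group (day 0) never received the high-fat diet, and the other 4 groups received it for 2, 4, 6 or 14 days. Each of the 5 groups had 4 libraries, called biological replicates in the labels, and 1 chow group served as control for every day. No chow animals of the later days were among the samples, so time in the experiment and time on the diet cannot be told apart. The libraries came from whole tissue, in which fewer cells of a type and less RNA per cell cannot be told apart. The p-values measure the spread between these libraries.

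Long-chain fatty acids enter mitochondria as carnitine esters, made by carnitine palmitoyltransferase 1 on the outer membrane and turned back into acyl-CoA by carnitine palmitoyltransferase 2 on the inner membrane. Inside, acyl-CoA dehydrogenases that differ in the chain length they prefer take the first oxidative step, and the trifunctional protein carries out the following steps for long chains. Oxct1 activates acetoacetate, so that tissues outside the liver can burn ketone bodies. White fat mainly stores and releases fatty acids, and its own oxidation is small beside that of muscle, liver or brown fat.

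The total count per library ran from 1916829 (day 2 replicate 1) to 38832429, so the precision differs between libraries. Levels are given as CPM, counts scaled to a common library total by TMM, in the usual CPM unit. Chow replicate 4 differed from the other chow libraries in genes of epididymal and ductal epithelium. A list of 8 such markers summed to 155 CPM there, with 2 of the 8 at 0. In chow replicates 1 to 3 the sum was 0.465 to 0.581 CPM, with 5 of the 8 at 0. Day 2 replicates 1, 2 and 4 had sums of 8.09, 4.94 and 7.25 CPM and day 14 replicate 4 one of 3.58 CPM, and the other libraries had 0.588 CPM or less. The part of these transcripts in the results was not tested. Called counts are also given without chow replicate 4 and day 2 replicate 1, the shallowest library, left out together. Adipocyte markers were abundant in every library. The sum of 10 of them was 21528 CPM or more.

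Cpt1a, Oxct1, Cpt2, Acads and Acadl were higher on high-fat days than on chow, and no tested member was called lower on any day. A gene was called where the edgeR quasi-likelihood F test gave a Benjamini-Hochberg adjusted p under 0.05 over all 15254 genes. On day 2, 4 of the 9 tested members were called higher, where 2.43% of all tested genes were called higher. On day 4 it was 5 of 9, against 18% of all genes. On day 6 it was 4 of 9, against 1.99%, and on day 14 it was 0 of 9, against 0.878%. At an unadjusted p under 0.05 the day 14 count was 4 of 9, against 18% of all genes. On that day DESeq2 called 2 members (4.53% of all genes it adjusted), limma-voom 1 (1.53%) and limma-voom with quality weights 1 (3.7%). With all 20 libraries the share of members was above the background on days 2 and 6. On day 4, when many genes of the tissue differed, it was also above it. Without chow replicate 4 and day 2 replicate 1 it was 0 of 9 on days 2 and 6, where 0.0457% and 0.0196% of all genes were called. In that fit it was 4 of 9 on day 4, against 26% of all genes. The members were chosen with earlier results known and are not independent of each other, so these shares are a description.

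The median log2 change of the 9 tested members against chow was 0.47, 0.47, 0.54 and 0.31 after 2, 4, 6 and 14 days. The median of all tested genes was between -0.03 and -0.01 on those days. All 9 had a positive change on days 2, 4 and 6, and 8 of 9 on day 14, when Acadvl was at -0.00241. Of all tested genes 45.7%, 48.3%, 48.8% and 48.7% had a positive change on the 4 days. The pattern was not particular to the members. Of 17 genes of mitochondrial content, described below, 17, 16, 16 and 8 were positive on these days. Of 15 other genes of mitochondrial beta-oxidation it was 12, 8, 12 and 12. In 6 of 9 members all 4 libraries of day 2 lay above all 4 chow libraries, which 5.47% of all genes did. The count was 5 of 9 on day 4 (15.2% of all genes), 6 of 9 on day 6 (6.2%) and 2 of 9 on day 14 (5.28%). With scaling by library size only, the median change of all genes was -0.14, -0.13, -0.14 and -0.10 on the 4 days, and all 9 members then still had a positive change on days 2, 4 and 6, with 6 of 9 on day 14. The split of all called genes into higher and lower then went from 371 and 299 to 228 and 593 on day 2, and from 2741 and 2640 to 1750 and 3681 on day 4. On day 6 it went from 304 and 223 to 160 and 747, and on day 14 from 134 and 46 to 65 and 78. Without chow replicate 4 and day 2 replicate 1 the counts of called members were 0, 4, 0 and 0 after 2, 4, 6 and 14 days. In that fit 7, 3975, 3 and 37 genes of the whole table were called on the 4 days (0.0457%, 26%, 0.0196% and 0.242%). The median change of the members without both libraries was 0.41, 0.35, 0.44 and 0.21 on the 4 days, with 9, 9, 9 and 7 of 9 positive.

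**Figure D1:**
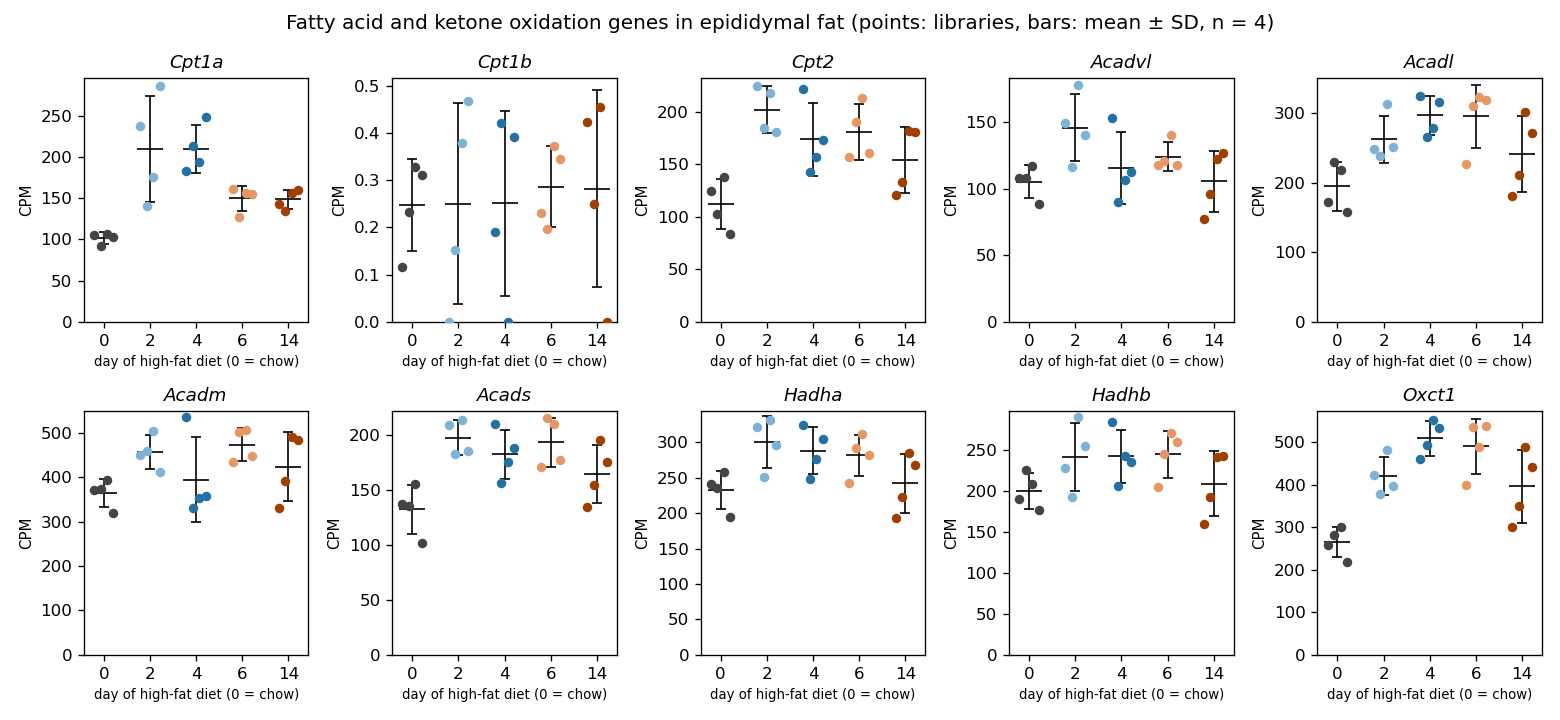
Levels of the 10 genes in CPM (vertical axis, linear, each panel with its own scale) by day of high-fat diet (horizontal axis, 0 is chow). Points are single libraries in the order of their replicate numbers, and black bars are the mean ± SD of 4 libraries. All high-fat libraries of Cpt1a and Oxct1 lie above all chow libraries, and Cpt1b is at 0.468 CPM or less in every library.

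The test of any difference between the 5 groups, which does not choose a day, called 5 of the 9 tested members, against 19.6% of all genes. Its adjusted p (edgeR quasi-likelihood test, Benjamini-Hochberg) was 0.00646 for Cpt1a, 0.00687 for Oxct1, 0.0190 for Cpt2, 0.0258 for Acads and 0.0450 for Acadl. Hadha (0.117), Acadvl (0.143), Acadm (0.218) and Hadhb (0.292) were not called. Cpt1a and Oxct1 were called in each of the 20 fits that left out 1 library, and without both libraries named above (adjusted p 0.0365 and 0.0390). Cpt2 was called in 18 of the 20, not without chow replicate 2 or chow replicate 4, and Acads in 17, not without either of these or day 4 replicate 4. Acadl was called in only 6 of the 20, and neither by limma-voom nor without the filter on low counts. Without both libraries Cpt2, Acads and Acadl were not called.

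Promoter windows were taken from RefSeq for the 9 members it lists in the table used (build GRCm38.p6, 250 bases up to the start site). The windows of the 4 genes called on both day 2 and day 4 are shown, and the window of Hadhb, since it also faces Hadha. Capitals mark 3 short motifs on either strand, the nuclear receptor hexamer AGGTCA, the GC box GGGCGG and the CCAAT box CCAAT. Each window is written 5′ to 3′ on the strand of its gene.
Cpt1a, chr19:3323051-3323300, plus strand: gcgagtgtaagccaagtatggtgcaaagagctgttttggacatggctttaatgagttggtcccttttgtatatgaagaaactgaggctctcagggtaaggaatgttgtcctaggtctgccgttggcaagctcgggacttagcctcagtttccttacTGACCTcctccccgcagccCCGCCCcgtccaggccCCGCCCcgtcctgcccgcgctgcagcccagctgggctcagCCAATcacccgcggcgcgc
Cpt2, chr4:107923590-107923839, minus strand: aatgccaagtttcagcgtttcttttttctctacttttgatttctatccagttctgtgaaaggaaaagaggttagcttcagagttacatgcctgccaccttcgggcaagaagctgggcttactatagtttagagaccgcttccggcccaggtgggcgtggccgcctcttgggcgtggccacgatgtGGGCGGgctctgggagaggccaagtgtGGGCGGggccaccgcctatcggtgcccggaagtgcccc
Acads, chr5:115119347-115119596, minus strand: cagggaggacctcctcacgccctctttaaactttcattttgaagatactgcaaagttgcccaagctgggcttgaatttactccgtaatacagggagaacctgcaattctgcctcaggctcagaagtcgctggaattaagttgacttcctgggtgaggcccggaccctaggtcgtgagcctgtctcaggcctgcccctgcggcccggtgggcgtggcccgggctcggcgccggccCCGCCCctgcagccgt
Oxct1, chr15:4026178-4026427, plus strand: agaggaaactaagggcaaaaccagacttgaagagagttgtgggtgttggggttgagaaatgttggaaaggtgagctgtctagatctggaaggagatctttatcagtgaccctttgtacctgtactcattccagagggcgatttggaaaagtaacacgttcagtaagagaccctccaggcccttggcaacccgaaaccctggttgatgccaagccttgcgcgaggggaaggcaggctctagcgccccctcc
Hadhb, chr5:30155003-30155252, plus strand: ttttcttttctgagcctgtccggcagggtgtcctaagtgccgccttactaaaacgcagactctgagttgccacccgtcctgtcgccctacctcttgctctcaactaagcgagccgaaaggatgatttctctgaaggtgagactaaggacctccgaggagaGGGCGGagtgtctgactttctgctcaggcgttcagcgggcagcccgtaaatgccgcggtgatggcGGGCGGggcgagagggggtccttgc

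The hexamer AGGTCA was in 3 of the 9 windows (Acadm, Acadvl and Cpt1a), and in 14% of all 32851 windows of the same length. The GC box was in 6 of 9 (Acadl, Acads, Cpt1a, Cpt2, Hadha and Hadhb), and in 32.7% of all windows. CCAAT was in the Cpt1a window alone among the 9, and in 33.8% of all windows. None of the 9 held TATAAA (12.4% of all windows), the extended site TCAAGGTCA (0.387%, it contains the shorter one) or a direct repeat of the hexamer spaced by 1 base with up to 2 mismatches (3.24%). The Oxct1 window held none of these motifs. Of the 4 genes called on days 2 and 4, Cpt1a alone had the hexamer. Acadm and Acadvl, which were called on no day, had it too. A match of letters is a description, and binding was not measured.

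Cpt1a (ENSMUSG00000024900) encodes the liver form of carnitine palmitoyltransferase 1, the step that commits long-chain fatty acids to oxidation. In chow replicates 1 to 4 it measured 106, 91.6, 106 and 103 CPM. It measured 237, 141, 175 and 286 CPM on day 2 and 183, 213, 194 and 249 CPM on day 4. On day 6 the libraries held 162, 127, 156 and 155 CPM, and on day 14 143, 135, 156 and 160.1 CPM. Every high-fat library was above every chow library, and the 4 chow libraries were close together, while day 2 was spread widely, lowest in replicate 2 and highest in replicate 4. The mean went from 102 ± 6.87 CPM (SD, n = 4) on chow to 210.0 ± 64.4 CPM on day 2 and 209.7 ± 28.8 CPM on day 4. It was 150.1 ± 15.4 CPM on day 6 and 149 ± 11.7 CPM on day 14.

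Cpt1a rose by 1.04 ± 0.16 on day 2 (log2 change, SE; edgeR with Benjamini-Hochberg adjustment, adjusted p = 0.00459) and by 1.04 ± 0.16 on day 4 (edgeR adjusted p = 0.000814). Both calls held in each of 20 fits without 1 library, and the day 2 call was lost without chow replicate 4 and day 2 replicate 1 together (log2 change 1.01, adjusted p 0.0752). The day 6 change was 0.56 ± 0.16 (edgeR adjusted p = 0.0559, 95% interval 0.22 to 0.90) and the day 14 change 0.55 ± 0.16 (edgeR adjusted p = 0.0821, 95% interval 0.21 to 0.89), neither called. With the replicate number as a term the day 6 value was called (edgeR adjusted p = 0.0410). It was also called by DESeq2 (adjusted p 0.0222), limma-voom (0.0486) and limma-voom with quality weights (0.0369). The day 14 value was called by DESeq2 (adjusted p 0.0373) and in the edgeR fit of only chow and day 14 (0.0308). Without chow replicate 4 and day 2 replicate 1 neither was called (edgeR adjusted p 0.174 and 0.218). From day 4 to day 6 all 4 libraries were lower, which 3.07% of all genes showed, with a log2 change of -0.48 ± 0.16 (edgeR adjusted p = 0.24). This was not called. In order, the level was lowest on chow, then day 14 and day 6, whose libraries overlapped, then day 4 and day 2, whose libraries overlapped too.

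Cpt1b (ENSMUSG00000078937), the muscle form of the same enzyme, was near 0. It had 100 reads over the 20 libraries, 0 to 13 in each, where Cpt1a had 51309. Its counts in replicates 1 to 4 were 2, 2, 13 and 10 on chow and 0, 3, 10 and 4 on day 2. They were 3, 2, 0 and 6 on day 4, then 6, 5, 4 and 11 on day 6, and 11, 4, 4 and 0 on day 14. All groups overlapped, with means of 0.247 CPM on chow and 0.250, 0.251, 0.286 and 0.282 CPM on days 2, 4, 6 and 14. At this depth a difference between them was not detectable. A count of 0 allows up to 3 counts, which is 1.62 CPM in day 2 replicate 1, 0.666 CPM in day 4 replicate 3 and 0.466 CPM in day 14 replicate 4 (counting error only). In the GENCODE M21 annotation 81.4% of the exon bases of Cpt1b overlap the readthrough gene Gm44502 on the same strand, which is not among the gene IDs of the count table, and its part in the level was not tested. Skeletal muscle markers, given below, were present at low levels.

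Cpt2 (ENSMUSG00000028607) encodes the inner membrane enzyme of the shuttle, used by all long-chain fatty acids. It measured 124, 103, 138 and 83.7 CPM on chow and 224, 185, 218 and 181 CPM on day 2. On day 4 it measured 222, 142, 156 and 173 CPM, and on day 6 157, 190.1, 213 and 161 CPM. The 4 libraries of each of these days were above all chow libraries, of which replicate 4 was lowest. On day 14 the values of 120.5, 133, 181 and 181 CPM split, with replicates 1 and 2 inside the chow range and 3 and 4 above it. Cpt2 rose by 0.84 ± 0.17 on day 2 (log2, SE; edgeR adjusted p = 0.015), 0.63 ± 0.17 on day 4 (edgeR adjusted p = 0.00969) and 0.68 ± 0.17 on day 6 (edgeR adjusted p = 0.0431). On day 14 the change was 0.45 ± 0.17 (edgeR adjusted p = 0.167).

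The day 4 call of Cpt2 held in each of the 20 fits without 1 library, and without both libraries (adjusted p 0.0457). Its day 2 call was lost without chow replicate 2, chow replicate 4, day 2 replicate 1 or day 2 replicate 4, with adjusted p up to 0.0556 and the log2 change was 0.723 to 0.96 over all 20 fits. The day 6 call was lost in 11 of the 20 fits, those without chow replicates 2 or 4, day 2 replicates 1 or 3, day 4 replicates 2, 3 or 4, day 6 replicates 2, 3 or 4, or day 14 replicate 2. Adjusted p reached 0.147 in these, and the log2 change was 0.555 to 0.799 over all 20. Without both libraries the adjusted p of Cpt2 was 0.149 on day 2 and 0.173 on day 6.

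A ratio of 2 genes in 1 library does not depend on the scaling between libraries. The geometric mean ratio of Cpt1a to Cpt2 counts was 0.921 on chow and 1.01, 1.22, 0.836 and 0.979 after 2, 4, 6 and 14 days. Against chow the log2 ratio was 0.40 higher on day 4 (exact two-sided permutation p = 0.171), and its difference was -0.14 to 0.13 on the other days (exact p = 0.543 to 0.686). The ratio of Cpt1a to Cpt1b was 0.72 higher on day 2 and 0.98 higher on day 4 in log2 (exact p = 0.0857 for each), with Cpt1b counts of 13 or fewer behind it. None of the 12 ratio tests, which include Hadha to Hadhb, passed Benjamini-Hochberg adjustment (lowest adjusted p 0.514). The smallest p that 4 against 4 libraries can give is 0.0286.

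**Figure D2:**
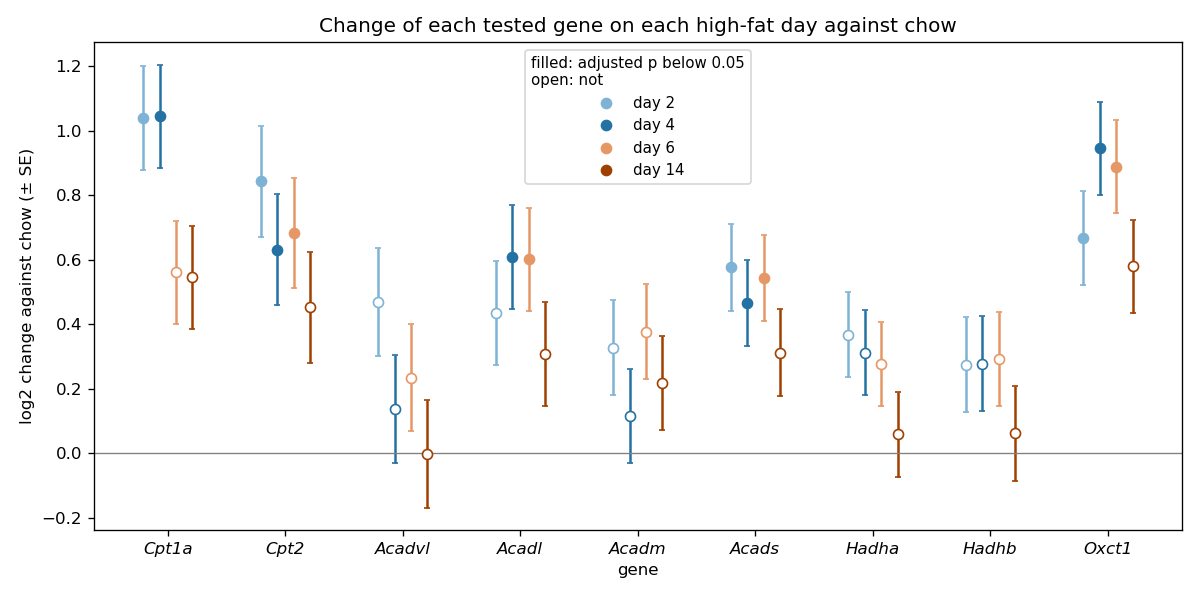
Log2 change against chow ± SE (vertical axis) of the 9 tested genes (horizontal axis), with 1 point for each high-fat day. Filled points were called (edgeR with Benjamini-Hochberg adjustment, p under 0.05). Cpt1a is highest on days 2 and 4 (1.04 on both), and Oxct1 on day 4 (0.94) and day 6 (0.89), while open points near 0 are Acadvl, Hadha and Hadhb on day 14.

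Of the 4 acyl-CoA dehydrogenases, the short-chain and long-chain enzymes were called on some days and the very-long-chain and medium-chain enzymes on none. Acads (ENSMUSG00000029545), for short chains, measured 138, 136, 155 and 101 CPM on chow and 209, 182, 213 and 186 CPM on day 2. It measured 210.2, 157, 176 and 188 CPM on day 4 and 171, 215, 209.7 and 177 CPM on day 6. On each of these days all 4 libraries were above all chow libraries, of which replicate 4 was lowest. On day 14 it measured 134, 154, 195 and 175 CPM, and replicates 1 and 2 overlapped chow. Acads rose by 0.58 ± 0.13 on day 2 (log2, SE; edgeR adjusted p = 0.0255), 0.47 ± 0.13 on day 4 (edgeR adjusted p = 0.013) and 0.54 ± 0.13 on day 6 (edgeR adjusted p = 0.0431). On day 14 the change was 0.31 ± 0.13 (edgeR adjusted p = 0.221).

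The day 4 call of Acads was lost without chow replicate 4 (adjusted p 0.0505, log2 change 0.345) and without both libraries (0.0666). Its day 2 call was lost without chow replicates 2 or 4 and without day 2 replicates 1, 3 or 4 (adjusted p up to 0.0852), and in the fit of only chow and day 2 (0.0602). Its day 6 call was lost in 9 of 20 fits, those without chow replicates 2 or 4, day 2 replicate 1, day 4 replicates 3 or 4, day 6 replicates 2, 3 or 4, or day 14 replicate 2 (adjusted p up to 0.144). Its log2 change lay between 0.465 and 0.662 on day 2 and between 0.427 and 0.631 on day 6 over all 20 fits.

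Acadl (ENSMUSG00000026003), for long chains, measured 172, 231, 218 and 158 CPM on chow. It measured 249, 238, 313 and 252 CPM on day 2 and 325, 266, 279 and 317 CPM on day 4, all above chow. On day 6 it measured 227, 311, 323 and 319.7 CPM, with replicate 1 inside the chow range and the other 3 well above it. On day 14 the values were 181, 211, 301 and 272 CPM, and replicates 1 and 2 overlapped chow. Acadl rose by 0.61 ± 0.16 on day 4 (log2, SE; edgeR adjusted p = 0.00819) and by 0.60 ± 0.16 on day 6 (edgeR adjusted p = 0.047). The changes of 0.43 ± 0.16 on day 2 (edgeR adjusted p = 0.107) and 0.31 ± 0.16 on day 14 (edgeR adjusted p = 0.322) were not called. The day 4 call held in each of 20 fits without 1 library and without both (adjusted p 0.0414). The day 6 call held in 5 of 20 only, those without day 2 replicate 2, day 4 replicate 1, day 6 replicate 1, or day 14 replicates 1 or 3. It was lost without each of the other 15 libraries (adjusted p up to 0.17, log2 change 0.505 to 0.708 over all 20).

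Acadvl (ENSMUSG00000018574), for very long chains and bound to the inner membrane, measured 108, 108, 117 and 88.1 CPM on chow and 149, 116, 178 and 140.1 CPM on day 2. It measured 153, 89.7, 107 and 112 CPM on day 4, 118, 120.4, 139.9 and 118 CPM on day 6 and 77, 96.3, 122 and 126 CPM on day 14. Day 6 was the only day with all 4 libraries above chow, by a small margin, and day 14 replicate 1 was under every chow library. The log2 changes were 0.47 ± 0.17 on day 2 (edgeR adjusted p = 0.0964), 0.14 ± 0.17 on day 4, 0.23 ± 0.17 on day 6 and -0.002 ± 0.17 on day 14 (edgeR adjusted p = 0.394 to 0.998 over days 4, 6 and 14), none called. Limma-voom with quality weights called day 2 (adjusted p 0.0493), as did the edgeR fit without day 2 replicate 2 (0.0425, log2 change 0.568). The sign of the day 4 change turned without day 4 replicate 1 (-0.03). In GENCODE M21 42.9% of the exon bases of Acadvl overlap Dvl2 on the other strand, which had 4301 reads against 40492 for Acadvl. The strand setting of the counts is not given in the sources used here, so reads of this stretch cannot be told apart.

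Acadm (ENSMUSG00000062908), for medium chains, measured 372, 373, 393 and 318 CPM on chow and 450.0, 459.8, 505 and 412 CPM on day 2. On day 6 it measured 434, 501, 507 and 448 CPM, and on both days all 4 libraries were above chow. On day 4 the values were 536, 329.7, 352 and 358 CPM, with replicate 1 far above the other 3, which lay in the chow range. On day 14 they were 329.7, 390.2, 490.3 and 484 CPM, and replicates 3 and 4 were above chow. The log2 changes were 0.33 ± 0.15 on day 2 (edgeR adjusted p = 0.169), 0.12 ± 0.15 on day 4 (0.559), 0.38 ± 0.15 on day 6 (0.128) and 0.22 ± 0.15 on day 14 (0.465), none called. Without day 4 replicate 1 the day 4 change was -0.07. The 95% interval of the day 4 change, -0.20 to 0.43, and that of Cpt1a, 0.70 to 1.39, did not overlap, but the difference between the 2 genes was not tested.

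Hadha (ENSMUSG00000025745) and Hadhb (ENSMUSG00000059447) encode the 2 subunits of the trifunctional protein. They lie head to head on chromosome 5, with start sites 273 bases apart at 30154980 (Hadha, minus strand) and 30155253 (Hadhb, plus strand). Their promoter windows share 228 bases, so the Hadhb window printed above is mostly that of Hadha as well. Hadha measured 242, 235, 258 and 195 CPM on chow, 322, 251, 332 and 297 CPM on day 2 and 324, 248, 277 and 304 CPM on day 4. It measured 242, 291, 311 and 283 CPM on day 6 and 193, 223, 285 and 268 CPM on day 14. On days 2, 4 and 6 the groups overlapped chow through 1 library each, and on day 14 they overlapped widely.

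Hadhb measured 189.6, 226, 208 and 176 CPM on chow, 228, 193, 290.3 and 255 CPM on day 2 and 284, 206, 243 and 236 CPM on day 4. It measured 204, 244, 269.9 and 259.9 CPM on day 6 and 159.8, 193, 241 and 242 CPM on day 14. It overlapped chow on every day, and as in Hadha day 14 replicate 1 was the lowest library of all 20. The log2 changes of Hadha were 0.37 ± 0.13, 0.31 ± 0.13, 0.28 ± 0.13 and 0.06 ± 0.13 on days 2, 4, 6 and 14 (edgeR adjusted p = 0.0963, 0.0694, 0.197 and 0.874). Those of Hadhb were 0.27 ± 0.15, 0.28 ± 0.15, 0.29 ± 0.15 and 0.06 ± 0.15 (edgeR adjusted p = 0.241, 0.144, 0.223 and 0.881). Neither gene was called on any day by the edgeR test. At an unadjusted p under 0.05 Hadha passed on days 2, 4 and 6, and limma-voom with quality weights called it on day 2 (adjusted p 0.0478), as did edgeR without day 2 replicate 2 (0.0410). The day 14 changes of both genes turned negative without chow replicate 4 or day 14 replicate 3, and that of Hadhb also without day 14 replicate 4 (lowest value -0.03 for Hadha and -0.01 for Hadhb). They were -0.04 for each with scaling by library size only.

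The counts of Hadha and Hadhb kept nearly the same ratio. The geometric mean ratio of Hadha to Hadhb was 1.16 on chow and 1.25, 1.19, 1.15 and 1.16 after 2, 4, 6 and 14 days. Against chow its log2 value differed by 0.11 on day 2 (exact two-sided permutation p = 0.314) and by 0.04 or less on the other days (exact p = 0.600 to 0.971). Over the 20 libraries their chow-centred log2 levels differed by a root mean square of 0.103, the smallest value of the 36 pairs of tested members. The largest was 0.628, between Cpt1a and Acadvl.

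Oxct1 (ENSMUSG00000022186), which transfers CoA from succinyl-CoA to acetoacetate, measured 258, 283, 301 and 219 CPM on chow. It measured 423, 379.5, 483 and 399 CPM on day 2 and 459.9, 494, 552 and 535 CPM on day 4. On day 6 the values were 399, 537, 488 and 538 CPM, and on day 14 302, 350.5, 490.2 and 443 CPM. Every high-fat library was above every chow library, but day 14 replicate 1 lay just above chow replicate 3. The mean went from 265 ± 35.5 CPM (SD, n = 4) on chow to 421 ± 45 CPM on day 2, 510.2 ± 41.2 CPM on day 4, 491 ± 65.6 CPM on day 6 and 396 ± 85.6 CPM on day 14.

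Oxct1 rose by 0.67 ± 0.14 on day 2 (log2, SE; edgeR adjusted p = 0.0196), 0.94 ± 0.15 on day 4 (edgeR adjusted p = 0.000814) and 0.89 ± 0.14 on day 6 (edgeR adjusted p = 0.00965). Its day 14 change of 0.58 ± 0.14 was not called (edgeR adjusted p = 0.0549), but was called with the replicate number as a term (0.0363), by DESeq2 (0.00575), by limma-voom (0.0356) and without day 14 replicate 1 or day 6 replicate 1 (lowest adjusted p 0.026). The day 4 call held in each of 20 fits without 1 library and without both (adjusted p 0.00558). The day 6 call was lost without chow replicate 4 (adjusted p 0.0687), without both (0.113) and in the fit of only chow and day 6 (0.102). The day 2 call was lost without chow replicates 2 or 4 and without day 2 replicates 1, 3 or 4 (adjusted p up to 0.0707, log2 change 0.585 to 0.736 over all 20). In GENCODE M21 12.6% of the exon bases of Oxct1 overlap BC037032 on the other strand, which had 376 reads against 137417 for Oxct1.

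Between consecutive high-fat days no tested member was called. From day 2 to day 4 it was 0 of 9 by edgeR, where 2.14% of all genes were called higher and 0.256% lower. From day 4 to day 6 it was 0 of 9, and 0% of all genes were called in either direction, as from day 6 to day 14. At an unadjusted p under 0.05 the counts were 0, 1 and 1 for these 3 steps, where 22.3%, 16.3% and 3.33% of all genes passed. DESeq2 called 0 members in each step (6.03%, 5% and 0% of the genes it adjusted), and from day 4 to day 6 it adjusted 1059 genes and 8 of the 9 members. Limma-voom called 0 members and 0% of all genes in each. Limma-voom with quality weights called 3 lower from day 2 to day 4 (22.2% of all genes were called), and 1 higher and 1 lower from day 4 to day 6 (13.4%). Without chow replicate 4 and day 2 replicate 1, edgeR called 0 members and 0% of all genes in each step. From day 6 to day 14 the change was negative in 9 of 9 members, with a median of -0.23 and values from -0.31 (Oxct1) to -0.01 (Cpt1a), and in each of the 9 some libraries overlapped. Apart from Cpt1a, each member had overlapping libraries between neighbouring high-fat days in the order of its means.

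Between genes, levels were compared per kilobase of exons in GENCODE M21, since longer transcripts give more reads. Over the 20 libraries Acadl had 129, Oxct1 113 and Acadm 108 CPM per kilobase of all exons. These were the 3 highest, and Cpt1b was lowest with 0.0781. Per kilobase of the longest coding transcript the same 3 led, with 206 for Acadm, 135 for Acadl and 118 for Oxct1. Cpt1a stood at 21.5 per kilobase of all exons and 38 of its longest transcript, and Cpt2 at 68.7 and 69.3. The order of the others depended on the length used, as for Hadhb with 34.5 or 111.

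Within a group, the same libraries were often high or low across the members. Chow replicate 4 was the lowest chow library in 8 of 9 tested members, with a median of -0.25 (log2 against the chow mean), and chow replicate 3 was the highest in 7. Day 14 replicate 1 was the lowest of its group in 8 of 9, with a median of -0.09, while day 14 replicates 3 and 4 stood at 0.58 and 0.42. Day 4 replicate 1 was the highest of its group in 7 and the lowest in the other 2, Cpt1a and Oxct1. On day 2, replicate 3 was highest in 7 and replicate 2 lowest in 7. On day 6, replicate 3 was highest in 6 and replicate 1 lowest in 7. Genes of 1 library share its RNA and its scaling, so these members are not independent of each other.

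**Figure D3:**
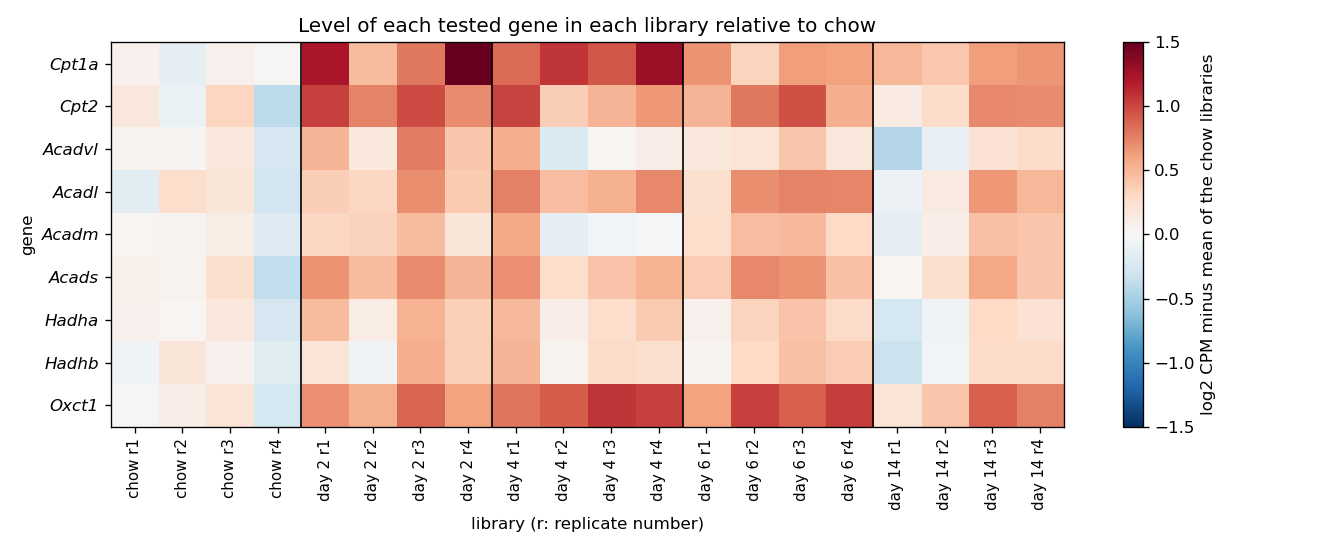
Level of each of the 9 tested genes (rows) in each of the 20 libraries (columns, r is the replicate number) as log2 CPM minus the mean of the 4 chow libraries, by colour. Red is above and blue below chow. The column of chow replicate 4 is blue in 8 of 9 genes, and day 14 replicate 1 is close to chow while day 14 replicates 3 and 4 are red.

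The genes whose levels ran most like each member over the 20 libraries were found by the root mean square difference of chow-centred log2 CPM. Hadha had the closest neighbours, Dlst, Cox6b1 and Sucla2 (0.067 to 0.0749), and Hadhb was closest to Sucla2, Pmpcb and Ndufc1 (0.099 to 0.109). Genes close to Acadvl were Atp5b (0.104) and Idh3b (0.108). Acadm was closest to Etfa, Hadh and Coq9 (0.0882 to 0.114). Acadl was closest to Decr1, 4931406C07Rik and Sfxn5 (0.14 to 0.151), and Acads to Tysnd1, Mcur1 and Ndufb3 (0.115 to 0.124). Cpt2 ran closest to Nnmt, Myl6b and Tmem120a (0.146 to 0.16), Cpt1a to Tatdn2, Ehbp1l1 and Hif1a (0.176 to 0.181) and Oxct1 to Lgals1, Ehd2 and Lmo4 (0.193 to 0.209). Among the 9, Oxct1 and then Cpt1a had the most distant nearest genes.

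The rest of fatty acid oxidation was read from 4 lists of other genes. Of the 43 tested genes of these lists, 1 was called higher on day 2 (edgeR) and 0 lower, where 2.43% of all genes were called higher and 1.96% lower. On day 4, 8 were called higher and 7 lower, where 18% of all genes were called higher and 17.3% lower. The day 4 counts were thus near the background. On day 6 it was 1 higher and 0 lower (1.99% of all genes were higher and 1.46% lower). On day 14 it was 0 (0.878% of all genes were higher and 0.302% lower). At an unadjusted p under 0.05 the counts were 16, 21, 16 and 4, where 25.8%, 46.2%, 24.4% and 18% of all genes passed. DESeq2 called 5, 17, 4 and 1 (9.71%, 36.2%, 7.8% and 4.53% of the genes it adjusted). Without chow replicate 4 and day 2 replicate 1 the edgeR counts were 0, 9, 0 and 0, where 0.0457%, 26%, 0.0196% and 0.242% of all genes were called. In that fit no gene of these lists or of those below was called on days 2, 6 or 14. Genes named below from outside the rule for named genes were chosen after their values were seen. In these lists, a gene said to rise or fall was called on that day.

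Among 9 tested genes of fatty acid activation and entry, the medians were 0.19, -0.14, 0.05 and 0.06 on days 2, 4, 6 and 14. Acsl3, an acyl-CoA synthetase, rose from 13.2 CPM to 25.2 CPM on day 2 (0.88 ± 0.24, log2, SE; edgeR adjusted p = 0.0424) and 32.3 CPM on day 4 (1.29 ± 0.23; edgeR adjusted p = 0.0013). On day 4 Acsl4 (0.41) and the carnitine-acylcarnitine carrier Slc25a20 (0.39), which links Cpt1 and Cpt2, also rose. Cpt1c (-0.79) and Acacb (-0.98), whose product malonyl-CoA inhibits Cpt1, fell on day 4. Cpt1c, a form of the enzyme known from brain, thus moved the other way from Cpt1a. Without both libraries Acsl3 and Acacb were called on day 4, and Slc25a20, Acsl4 and Cpt1c were not (adjusted p 0.093, 0.107 and 0.063).

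Among 15 other genes of mitochondrial beta-oxidation the medians were 0.25, 0.03, 0.23 and 0.10 on the 4 days. On day 4 Acad9 (0.47 ± 0.13; edgeR adjusted p = 0.0111), which also serves complex I assembly, rose, as did Decr1 (0.44), for unsaturated chains, and Etfdh (0.38), which passes electrons from the dehydrogenases to ubiquinone. Acad10 (-0.93 ± 0.21; edgeR adjusted p = 0.00335) and Acad12 (-0.90 ± 0.21; edgeR adjusted p = 0.0042), relatives of the 4 dehydrogenases above, fell on day 4. Without both libraries Acad9, Acad10 and Acad12 were called on day 4, and Decr1 (0.0875) and Etfdh (0.134) were not. In peroxisomal beta-oxidation, 12 tested genes had medians of 0.25, 0.04, 0.23 and 0.18. The thiolase Acaa1b rose on day 4 (0.86 ± 0.19; edgeR adjusted p = 0.00298) and day 6 (0.70 ± 0.19; edgeR adjusted p = 0.0463), and the transporter Abcd3 (0.32) on day 4. Without both libraries Acaa1b was called on day 4, but not on day 6 (adjusted p 0.177), and Abcd3 was not called (0.092). Acaa1b has a near-identical copy, Acaa1a, so its value is uncertain.

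Among 7 tested genes of the ketone body list the medians were 0.03, -0.45, -0.20 and -0.14 on the 4 days. On day 4, 3 were called lower and 0 higher, where 17.3% of all genes were called lower and 18% higher. On day 4 without both libraries 26% of all genes were called, and 3 of the list. Of these Bdh2, a dehydrogenase, was at 2.27 CPM on chow and fell on day 4 (-1.55 ± 0.35, log2, SE; edgeR adjusted p = 0.00372), when Oxct1 rose. It was also called without both libraries (adjusted p 0.0102). The carrier Slc16a1 was called in the test of any difference (edgeR adjusted p = 0.0467) and went from 57.8 CPM on chow to 84.5 CPM on day 14 (edgeR adjusted p = 0.0585). Bdh1, the partner of Oxct1 in ketone use, had 116 reads over the 20 libraries and was not tested, and the other Oxct genes, Oxct2a and Oxct2b, had 7 and 0.

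Among 13 regulators, the nuclear receptors and coactivators known to act on these genes, the medians were 0.28, 0.11, -0.01 and 0.02. Rxra rose on day 2 (0.45). On day 4 Esrra (0.58 ± 0.21; edgeR adjusted p = 0.0358) and Ppard (0.24) rose, and Ncor1 (-0.46) fell. Without both libraries Ncor1 was called, and Rxra on day 2 (adjusted p 0.228), Esrra (0.117) and Ppard (0.17) were not. Of 9 other target genes of PPAR receptors, Ucp3, a mitochondrial carrier, rose on all 4 days. It measured 33.2, 33.1, 26.5 and 25.7 CPM on chow and 78.9, 64.5, 77.7 and 90.4 CPM on day 4, with no overlap (1.41 ± 0.23; edgeR adjusted p = 0.00104). Its change was 0.88 on day 2, 1.06 on day 6 and 1.05 on day 14. Without both libraries Ucp3 was called on day 4, and not on days 2, 6 and 14 (adjusted p 0.252, 0.134 and 0.142). The lipid droplet genes Plin5 (0.86, day 2) and Hilpda (1.63 on day 4, 1.30 on day 14) rose, and the kinase gene Pdk4 (-0.91, day 4) fell. Acot1 fell on days 4, 6 and 14 (-3.09, -3.12 and -3.41), but chow replicate 4, where the epididymal list was highest, held 299 of its reads against 9 to 39 in the other chow libraries, and Acot1 has close copies. Without both libraries its day 4 change was -1.40. Of the 9 genes, 2, 4, 2 and 3 were called after 2, 4, 6 and 14 days. Of all genes 2.43%, 18%, 1.99% and 0.878% were called higher on these days, and 1.96%, 17.3%, 1.46% and 0.302% lower. Without both libraries the counts of the list were 0, 4, 0 and 0, where 0.0457%, 26%, 0.0196% and 0.242% of all genes were called.

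Genes of mitochondrial content were read beside the members. Of 17 tested genes, 17, 16, 16 and 8 had a positive change on days 2, 4, 6 and 14. On day 2, 2 were called higher, where 2.43% of all genes were. These were Mdh2 (0.62 ± 0.15; edgeR adjusted p = 0.0256) and Idh3a (0.86 ± 0.21; edgeR adjusted p = 0.0285), both of the citrate cycle. On day 4, 3 were called higher, Cs (0.54), Idh3a (0.79) and Vdac1 (0.42), where 18% of all genes were. At an unadjusted edgeR p under 0.05, 9 passed on day 2 and 6 on day 4, where 25.8% and 46.2% of all genes passed. Without both libraries 0.0457% of all genes were called on day 2 and 26% on day 4. Of the list it was 0 on day 2 (adjusted p 0.196 for Mdh2 and 0.213 for Idh3a) and 1, Idh3a, on day 4. The medians were 0.31, 0.20, 0.14 and -0.03 on the 4 days, below the 0.47, 0.47, 0.54 and 0.31 of the members on each of them. The sum of the list was 4253 to 5415 CPM on chow, 5193 to 7067 CPM on day 2 and 5060 to 6755 CPM on day 4. On day 6 it was 5159 to 6282 CPM, and on day 14 it was 3887 to 5888 CPM. Whether the members differed apart from mitochondrial content was not tested.

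Markers of other cells and of brown fat were read in the same libraries. Of the brown and beige fat list, Ucp1 had 57 reads, Elovl3 65 and Zic1 0 over the 20 libraries. Cox7a1 rose from 1.37 CPM to 3.73 CPM on day 2 (edgeR adjusted p = 0.0302), 6.75 CPM on day 4 and 4.88 CPM on day 6. Dio2 (4.38 and 3.00) and Otop1 (4.04 and 2.62) rose on days 4 and 6 from 0.394 and 0.366 CPM, and Ebf2 (-0.93) fell on day 4. On day 4 18% of all genes were called higher and 17.3% lower. Without both libraries the same 4 genes were called on day 4, where 26% of all genes were. The calls of Cox7a1 on days 2 and 6 and of Dio2 and Otop1 on day 6 were lost (adjusted p 0.116 to 0.18). The median log2 change of the 7 tested genes was 1.41, 1.15, 0.91 and -0.06 on the 4 days. The sum of the list, most of it Ebf2, was 54.6 to 102 CPM on chow and 70.2 to 93.7 CPM on day 4. Skeletal muscle markers summed to 14.1 to 38.3 CPM on chow and 7.01 to 11.5 CPM on day 2, where all 4 libraries were below chow. On days 4, 6 and 14 they overlapped chow, with 14.1 to 47.3, 18.6 to 72.4 and 14.7 to 42.6 CPM. Of the 10 genes, 6 were not tested, with 6 (Ckm and Myh4) to 138 reads (Tnnt3) over the 20 libraries. Their most abundant gene Acta1 had 17.8 CPM on chow and 4.41 CPM on day 2 (edgeR adjusted p = 0.0858), and Actn3 (-1.67) fell on day 4 (1 of 4 tested genes, also without both libraries). On day 4 17.3% of all genes were called lower, and 26% were called without both libraries.

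Mesothelial markers, of the thin lining over the pad, were lower in the high-fat libraries. On day 2, 9 of 10 fell (0 without chow replicate 4 and day 2 replicate 1), on day 4 10 of 10 (10 without both) and on day 6 2 of 10 (0 without both). Of all genes 1.96%, 17.3% and 1.46% were called lower on these days. Without both libraries 0.0457%, 26% and 0.0196% of all genes were called. Upk3b (-1.56), Lrrn4 (-1.75) and Rspo1 (-1.28) fell on day 2, and stood at -1.61, -1.76 and -1.05 without both libraries. Krt18 (-2.60), Krt8 (-2.66) and Krt19 (-1.31) of the list also fell on day 2. Without both libraries they stood at -1.36, -1.36 and -1.13. The sum was 378 to 489 CPM on chow, 117 to 182 CPM on day 2, 76.5 to 225 CPM on day 4, 169 to 296 CPM on day 6 and 168 to 358 CPM on day 14. On day 14 it was 358 CPM in replicate 1, the lowest library of its group in 8 of 9 members, and 317 CPM in replicate 2. It was 168 and 174 CPM in replicates 3 and 4, which were highest in 6 and 3 members. The part of this shift in the members' changes was not tested.

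The sum of the adipocyte markers was 23711 to 43070 CPM on chow, 28747 to 45147 CPM on day 2 and 21528 to 33535 CPM on day 4. It was 25345 to 42258 CPM on day 6 and 31368 to 37407 CPM on day 14. The ranges of all groups overlapped, but day 4 did so through replicate 1 alone (33535 CPM). Day 4 replicates 2 to 4, with 21528, 22972 and 23324 CPM, were below every chow library. Lep, which encodes leptin, rose on all 4 days, from 637 CPM to 1432 CPM on day 2 and 2645 CPM on day 4 (2.05 ± 0.32; edgeR adjusted p = 0.000926), while Adipoq (-0.92) and Cfd (-2.26) fell on day 4. Without both libraries these 3 genes were called on day 4, and Lep was not on days 2, 6 and 14 (adjusted p 0.206, 0.129 and 0.0989). The highest adipocyte sum of day 4 was that of replicate 1, the library with the most Acadm. Endothelial markers summed to 963 to 1261 CPM on chow. On day 4 the sum was 1155 CPM in replicate 1 and 1959, 2169 and 1807 CPM in replicates 2 to 4. Of the 10 genes, 6 rose on day 4, where 18% of all genes were called higher. Kdr (0.65), Egfl7 (0.84) and Ramp2 (1.24) were among them. Without both libraries only these 3 were called on day 4, where 13.1% of all genes were called higher. The endothelial sum was 1102 to 1206 CPM on day 2, 1033 to 2039 CPM on day 6 and 1009 to 1532 CPM on day 14. Macrophage markers summed to 1281 to 1530 CPM on chow and 731 to 1214 CPM on day 2, where all 4 libraries were below chow. On days 4, 6 and 14 they overlapped chow, with 778 to 1449, 967 to 1506 and 937 to 1604 CPM. Of the 10 macrophage genes 1, Cd14 (-1.17), fell on day 4, where 17.3% of all genes were called lower. It was also called without both libraries, where 26% of all genes were. The most abundant macrophage genes Lyz2 (edgeR adjusted p = 0.112) and Csf1r (edgeR adjusted p = 0.222) were not called on day 2. Cell cycle genes rose on day 4 in 10 of 10, with Mki67 at 3.82, Aurkb at 3.12 and Foxm1 at 3.61, where 18% of all genes were called higher. Without both libraries it was also 10 of 10, where 13.1% were called higher. The cell cycle sum was 55.8 CPM in day 4 replicate 1 and 573, 460 and 480 CPM in replicates 2 to 4. The part of any of these lists in the members' changes was not tested.

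**Figure D4:**
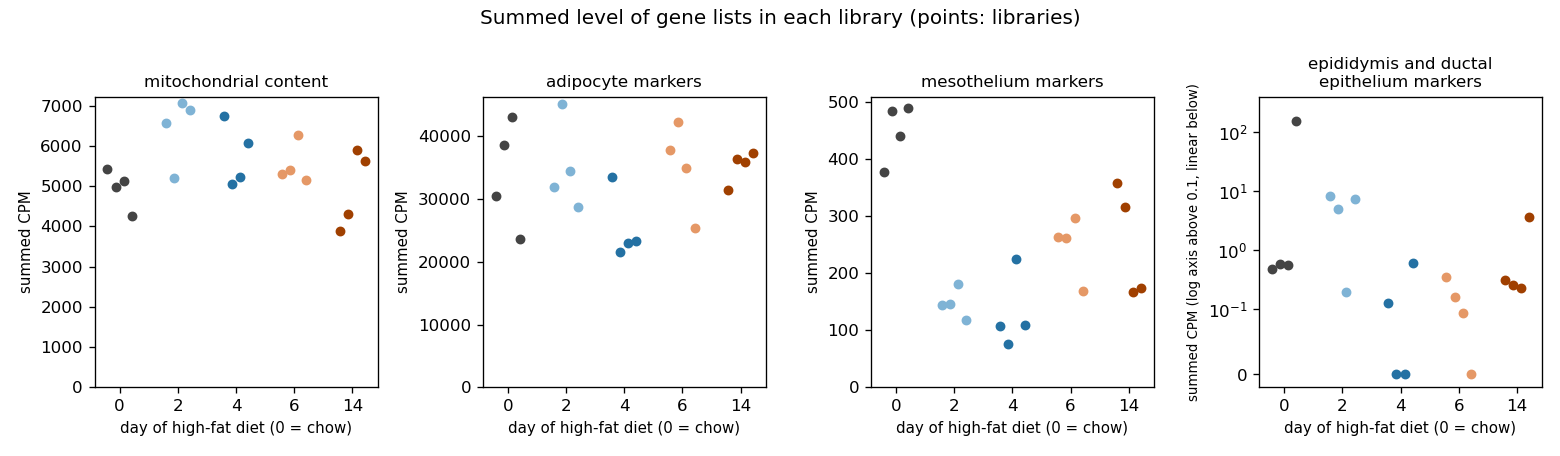
Summed level in CPM (vertical axes, linear except for the epididymal panel, which is logarithmic above 0.1 and linear below) of 4 gene lists in each library (points) by day of high-fat diet (horizontal axis, 0 is chow). Mitochondrial content is highest on day 2, mesothelial markers are highest on chow, and the epididymal list reaches 155 CPM in chow replicate 4. Adipocyte markers overlap between all groups, day 4 through replicate 1 alone.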

How the data were processed

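RNA-seq read counts of 20 libraries of mouse epididymal fat, 4 for each of 5 groups, were used as deposited in 1 table by the authors, as whole-number counts per gene that were not normalized. Named without a role in the submitters' processing notes were featureCounts, STAR, CASAVA, R 3.0 and limma. The genome build, the annotation and the strand setting are not given in the sources used here. A table of gene IDs gave symbols for 37607 of 39179 IDs, GENCODE M21 gave exon lengths and overlaps, and RefSeq (GRCm38.p6) gave promoter windows. Whether the authors used these releases is not given in the sources used here.

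Counts were tested with the edgeR (4.0.16) quasi-likelihood F test in R 4.3.3, with all 20 libraries in 1 fit by group (15 residual degrees of freedom, common biological coefficient of variation 0.209). The edgeR filter on low counts (minimum count 10, minimum total 15) and TMM scaling were used, with robust dispersion estimation. Of 39179 gene IDs, 15254 were tested, and p-values were adjusted over these by Benjamini-Hochberg for each comparison, with a threshold of 0.05. The standard error was taken as the log2 change divided by the square root of F. Count ratios had 0.5 added to each count, and were tested by exact permutation. Likeness used log2 CPM with a prior count of 2.

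Totals ran from 1916829 to 38832429 counts per library, and the shallower libraries are the less precise. No 2 libraries were alike within sampling noise (lowest chi-square over degrees of freedom 4.65, replicate r 0.954 to 0.989). Chow and high-fat samples with the same replicate number deviated together in 3 of 16 cases (r over 0.1, range -0.12 to 0.28). The labels do not say what the numbers mark, and they were not taken as pairs. The alternatives were other scaling and filters, DESeq2 1.42.0, limma 3.58.1 voom with and without quality weights, the replicate number as a block, only the groups compared, each library left out in turn, and chow replicate 4 and day 2 replicate 1 left out together. The fit was tested on simulated data.

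The members and gene lists were chosen with earlier results of these data known. All 10 members were named. From each other list the rule named up to 3 genes called in the test of any difference with the smallest adjusted p, or, where none was called, up to 2 with the highest mean level. Other genes are named from their values. Some genes that the rule or the lists picked are not reported here.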

Additional observations from a re-analysis of the deposited data

Results flagged for a closer look

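In 4 of 60 groups of 4 libraries, 1 library stood apart from the other 3 by more than Dixon's 95% limit (its gap to the nearest library over the whole range). Chance does this in about 1 in 20 groups. Acadm on day 4 had a ratio of 0.830, with replicate 1 highest at a log2 CPM of 9.07 against 8.37 to 8.48. Acadl on day 6 had a ratio of 0.890, with replicate 1 lowest at 7.83 against 8.28 to 8.34. Acadvl on day 6 had a ratio of 0.864, with replicate 3 highest at 7.13 against 6.88 to 6.91. The log2 ratio of Cpt1a to Cpt1b on chow had a ratio of 0.982, with replicate 1 highest at 9.51 against 8.28 to 8.30, and rests on few Cpt1b counts.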

How the results depend on the processing

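The log2 changes of the 9 tested members against chow kept their direction and their side of the threshold in 322 values from alternatives other than leaving out 1 library. Of the others, 13 became called, 18 were no longer called and 7 changed sign. With 1 library left out, 644 values did so, 9 became called, 51 were no longer called and 16 changed sign. With the replicate block the called members were 4, 5, 5 and 1 on days 2, 4, 6 and 14, 0 between high-fat days and 5 for any difference, and the called genes of the whole table were 905, 5495, 409, 235 and 3174, against 670, 5381, 527, 180 and 2994 without it. The labels do not say what the replicate numbers mark, so the block is given as an alternative only.

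With 1 library left out, the count of called members ranged from 1 to 6 at day 2, from 4 to 5 at day 4, from 0 to 5 at day 6 and from 0 to 1 at day 14. From day 2 to day 4 it was 0 to 2 (2 without day 4 replicate 1), from day 4 to day 6 and from day 6 to day 14 it was 0, and for any difference 2 to 5. On day 2 it was 1 without chow replicate 2, chow replicate 4, day 2 replicate 1 or day 2 replicate 4. Without the filter on low counts it was 1 on day 6, and with only the groups compared 0. On day 14 it was 1 with the stricter filter, limma-voom, limma-voom with quality weights, the block or only the groups compared, and 2 with DESeq2. Quality weights gave 3 from day 2 to day 4, 2 from day 4 to day 6 and 8 for any difference. Without chow replicate 4 and day 2 replicate 1 it was 0 on day 2, 0 on day 6 and 2 for any difference.

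Called genes of the whole table with 1 library left out ranged from 43 to 1758 at day 2, from 3213 to 5721 at day 4, from 7 to 1343 at day 6, from 45 to 482 at day 14 and from 976 to 4042 for any difference. On day 2 they were 317 without the filter, 1412 with DESeq2, 444 with limma-voom, 1244 with quality weights, 177 with only the groups compared and 7 without both libraries. On day 6 they were 907 with library size only, 130 without the filter, 1180 with DESeq2, 1045 with quality weights, 0 with only the groups compared and 3 without both. On day 14 they were 96, 659, 565, 79 and 37 without the filter, with DESeq2, with quality weights, with only the groups compared and without both. For any difference they were 6386 with quality weights and 755 without both.

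Signs turned for small changes. With quality weights the day 4 change was -0.0732 for Acadm and -0.0397 for Acadvl, and the day 14 change was -0.0186 for Hadha and -0.0322 for Hadhb. With library size only the day 14 change was -0.0384 for Hadha and -0.0391 for Hadhb, and without both libraries -0.0123 for Hadha. With 1 library left out, Acadm ranged from -0.0690 to 0.194 and Acadvl from -0.0292 to 0.241 at day 4. At day 14 Acadvl ranged from -0.0993 to 0.129, Hadha from -0.0278 to 0.159 and Hadhb from -0.0149 to 0.176. The log2 ratio of Cpt1a to Cpt1b ranged from -0.0986 to 0.833 at day 14. That of Cpt1a to Cpt2 ranged from -0.0866 to 0.270 at day 2, from -0.241 to 0.000437 at day 6 (0.000437 also without both) and from -0.00424 to 0.229 at day 14. That of Hadha to Hadhb ranged from -0.0147 to 0.0831 at day 4, from -0.0629 to 0.0348 at day 6 and from -0.0504 to 0.0473 at day 14 (-0.0215 without both). The causes of these shifts were not tested. Depth limits Cpt1b most, with 0 to 13 reads in a library.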
